A study of Homo sapiens with 10 samples.

Results

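The genes described here are 9 chromatin architecture genes, the linker histones H1-2, H1-4 and H1-10 and the high mobility group (HMG) genes HMGA1, HMGA2, HMGB1, HMGB2, HMGB3 and HMGN1. They were picked by symbol from 61533 genes in the RNA-seq count tables, with earlier values of the same comparison known. Their differences between the cell lines are therefore given as a description, with no test, and nothing is supported by them. Linker histones bind the nucleosome where DNA enters and leaves it and favour compact chromatin. HMG proteins are abundant non-histone proteins that bend or loosen chromatin: HMGA proteins hold AT-rich DNA through AT hooks, HMGB proteins bend DNA through HMG boxes, and HMGN proteins bind the nucleosome core. HMG boxes are also known for binding DNA distorted by cisplatin crosslinks, which makes the group of interest in a cisplatin-resistant line.

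RNA was measured in the human bladder cancer cells T24 and in T24R2, a resistant line derived from T24 by repeated cisplatin exposure, with 5 libraries of each from day 3 of culture. The study asked how transcripts differ between cisplatin-sensitive and cisplatin-resistant cells. T24R2 is 1 derived line, and the methods keep it in medium with cisplatin while the labels list the same drug-free medium for both lines, so line and drug exposure cannot be told apart. The labels do not say that the replicates were separate cultures, and p-values therefore measure only the spread between these libraries, which may be technical. Totals were 9257843 to 10247941 counts in T24 and 9591379 to 10840954 in T24R2. Of the 15 urothelial and epithelial markers, 10 lay above 3 counts in at least 1 T24 library and 9 in at least 1 T24R2 library. The keratin KRT7 led them, while KRT20, UPK1B, UPK3A and CDH1 did not pass 3 counts in either line. The markers that passed were not the same. KRT19 (means of 267 CPM in T24 and 0.0887 in T24R2) and EPCAM (4.45 and 0.130 CPM) passed in T24 alone. KRT5 passed in T24R2 alone, with at most 6 counts. The summed level of those markers ran from 4943 to 5676 CPM (counts scaled to the library total) in T24 and from 3013 to 3217 in T24R2. Immune markers summed to at most 1.79 CPM and fibroblast markers to at most 11.2 CPM. The 3 endothelial markers summed to 225 to 278 CPM in T24, nearly all of it CDH5, and to 1.60 to 2.50 CPM in T24R2. These differences between the lines moved with the values below, and their part in them was not tested.

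Levels are CPM after TMM normalization, given as mean ± SD of 5 libraries, and log2 fold changes are T24R2 over T24 from edgeR. Their standard error (SE) is approximate: the absolute log2 fold change divided by the square root of the F statistic of edgeR's quasi-likelihood test. A gene was called when edgeR's quasi-likelihood test gave a Benjamini-Hochberg adjusted p under 0.05 and the absolute log2 fold change exceeded 0.5. By that rule 51.4% of all 16181 tested genes were called, 24.9% as higher and 26.5% as lower in T24R2. That balance depends on the scaling: without scaling beyond total counts 32.2% were called higher and 21.2% lower, and with upper-quartile normalization 28.002% and 23.997%. Of the 9 genes 8 were tested, 7 met the rule as lower and 0 as higher, and H1-4 was too sparse for the test. This count follows from how the genes were listed and is not read against the background. In 7 of the 9 the libraries of the lines did not overlap, as in 61.2% of all tested genes. The median log2 fold change of the 8 was −0.83, beside 0.01 over all tested genes. In bulk RNA, fewer cells of a type and less RNA per cell cannot be told apart.

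**Figure D1:**
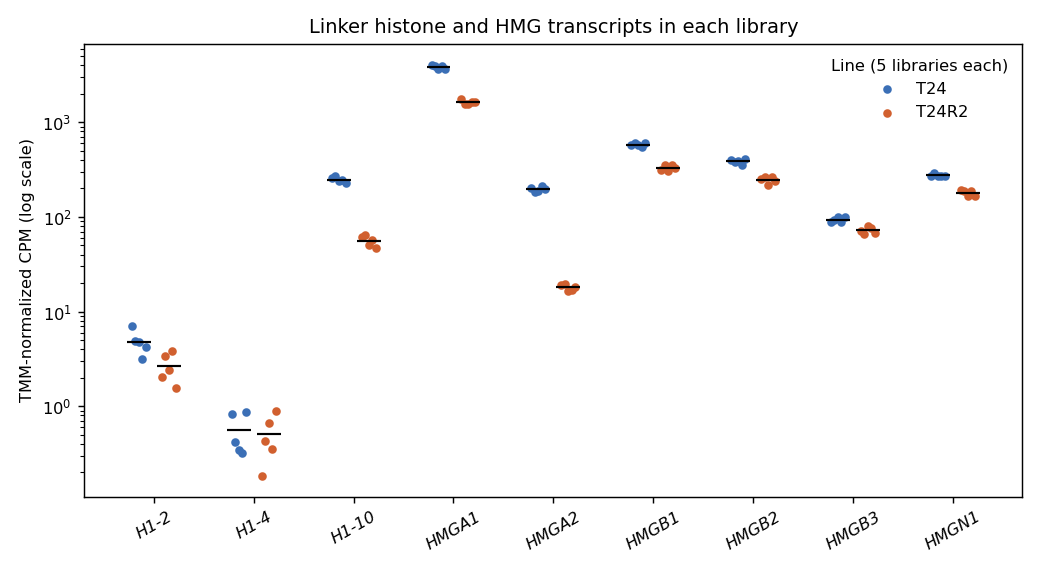
CPM (log scale) of the 9 genes in each library, T24 in blue and T24R2 in orange, with black lines at the means of 5 libraries. HMGA2 showed the widest gap between the lines, from 195 to 18.04 CPM, and the points of H1-2 and H1-4 overlapped.

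H1-2 and H1-4 encode somatic linker histones made mainly in S phase. Their mRNAs normally end in a stem-loop instead of a poly(A) tail. To show this, the end of each transcript is printed, with the stem-loop in capitals, from the canonical GENCODE release 44 transcript on hg38.
H1-2, chr6:26055740-26055764, minus strand: caaaaGGCTCTTTTCAGAGCCacca
H1-4, chr6:26157090-26157115, plus strand: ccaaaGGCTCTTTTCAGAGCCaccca

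The motif searched was GG, any 3 letters, TT, any letter, T, any letter, A, any 3 letters and CC, in the last 150 bases of the transcript, on the transcript strand. It occurred in 0.605% of 19666 transcripts and in 62 of 63 replication-dependent core histone genes. H1-10 and the HMG genes listed had no match, which says only that these letters are not in that window.

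The promoters of both genes also held the same 7-letter element, AAACACA, often called the H1 box, printed in capitals from the RefSeq promoters on GRCh38.p14. The first printed base of the element lay 119 bases before the start of H1-2 and 117 before that of H1-4.
H1-2, chr6:26056572-26056600, minus strand: tgaggtggaacAAACACAacttgggagca
H1-4, chr6:26156201-26156229, plus strand: tgaggtgtaacAAACACAactcgggatcc

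Searched on both strands, the element occurred in 5.64% of 35116 promoters of 300 bases (250 before the start and 50 after it). H1-2 had another match on the opposite strand, and H1-10 had none. Of the 9 genes 7 had a promoter in that table, all but HMGA2 and HMGB2.

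H1-2 (ENSG00000187837.4, chr6:26055740-26056470) was sparse in both lines. The T24 libraries held 68, 47, 42, 29 and 39 counts, equal to 7.06, 4.94, 4.80, 3.12 and 4.21 CPM. The T24R2 libraries held 22, 39, 25, 43 and 16 counts, equal to 2.02, 3.38, 2.40, 3.83 and 1.57 CPM. The lines overlapped, since T24 replicate 4 lay below T24R2 replicates 2 and 4. The means were 4.83 ± 1.44 and 2.64 ± 0.94 CPM, a log2 fold change of −0.86 (SE 0.24). H1-4 (ENSG00000168298.7, chr6:26156329-26157115) gave 8, 4, 3, 3 and 8 counts in T24 and 2, 5, 7, 4 and 9 in T24R2. At 0.56 ± 0.27 and 0.51 ± 0.28 CPM, no difference in H1-4 was detectable at this depth. Both values describe whatever part of stem-loop mRNA these libraries captured. Whether poly(A) RNA was selected is not given in the sources used here, and of 6 small RNAs that lack a poly(A) tail RN7SL1 alone had counts, 378 ± 30.02 CPM in T24 and 158 ± 85.5 in T24R2. In T24R2 it ranged from 65.1 to 298 CPM, so the share of such RNA was uneven among those libraries. Its part in the H1-2 values was not tested.

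H1-10 (ENSG00000184897.6, chr3:129314771-129316286, minus strand) encodes a linker histone variant that is made outside S phase as well. It had 257, 273, 238, 244 and 229 CPM in T24. In T24R2 the values were 61.1, 63.8, 50.003, 57.5 and 47.2 CPM, and every library lay far below every T24 library. The means of 248 ± 17.3 and 55.9 ± 7.12 CPM put T24R2 at 22.5% of T24, a log2 fold change of −2.15 (SE 0.06). Its exons shared 345 bases, 22.8% of their length, with H1-10-AS1 on the opposite strand. H1-10-AS1 fell from 137 ± 10.3 to 34.4 ± 4.73 CPM, a log2 fold change of −1.99 (edgeR adjusted p = 2.8e-26). The authors counted with strand option 1, and how completely the libraries kept the strands apart was not tested. With the counts of H1-10-AS1 taken off those of H1-10, the log2 ratio of H1-10 was −2.37. Since H1-10-AS1 fell less than H1-10, this subtraction had to widen the gap. It cannot show how much antisense signal the H1-10 counts hold.

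The other linker histone genes analysed here were at or near 0. H1-1, H1-6 and H1-8 were at 0 counts in all libraries. H1-3, H1-5 and H1-7 reached at most 3, 5 and 1 counts in any library. The transcripts of H1-1, H1-3 and H1-5 also had the stem-loop motif, so their low counts carry the same limit as those of H1-2 and H1-4. Per kb of exon, which allows levels of different genes to be compared, H1-10 stood at 164 ± 11.4 CPM per kb in T24 and 36.9 ± 4.69 in T24R2. H1-2 stood at 6.60 ± 1.97 and 3.61 ± 1.29 CPM per kb, far below H1-10 in both lines. H1-4 stood at 0.707 ± 0.341 and 0.643 ± 0.350 CPM per kb. H1-10 had no stem-loop match, so these gaps mix expression with how far stem-loop mRNA was captured. The part of each was not tested.

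HMGA1 and HMGA2 encode AT-hook proteins of embryonic tissue that are often raised in tumours, and HMGA2 is a textbook target of the let-7 microRNAs. The let-7a sequence is printed with its seed, bases 2 to 8, in capitals, followed by every stretch of the HMGA 3′ UTRs that matches the seed, with the matching letters CTACCTC in capitals. The microRNA comes from RefSeq and the sites from the canonical GENCODE release 44 transcripts on hg38, plus strand.
hsa-let-7a-5p: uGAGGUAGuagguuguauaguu
HMGA2, chr12:65963298-65963320: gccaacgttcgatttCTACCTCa
HMGA2, chr12:65964533-65964555: ccccactactcaataCTACCTCt
HMGA2, chr12:65964945-65964967: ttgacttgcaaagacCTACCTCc
HMGA2, chr12:65965798-65965820: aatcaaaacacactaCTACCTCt
HMGA1, chr6:34245829-34245851: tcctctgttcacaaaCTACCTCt

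HMGA2 had 4 matches in 2999 bases and HMGA1 had 1 in 1347 bases, while the UTRs of the other 7 genes had 0. Of 19229 3′ UTRs 9.71% held the 7 letters on the transcript strand. Of 2212 UTRs of a length similar to that of HMGA2, its own included, 2 (0.0904%) had at least 4 matches, and HMGA2 is 1 of these 2. A match is a run of letters, not evidence that a microRNA acts there, and microRNAs were not measured.

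HMGA2 (ENSG00000149948.14, chr12:65824460-65966291, plus strand) had 200, 183, 187, 210 and 195 CPM in T24. In T24R2 it had 18.9, 19.6, 16.5, 16.9 and 18.3 CPM. No library of T24R2 came near the T24 range, and the spread within each line was small. The means of 195 ± 10.9 and 18.04 ± 1.30 CPM left T24R2 at 9.25% of T24, with a log2 fold change of −3.43 (SE 0.06). This was the widest difference among the 9 genes and the 512th lowest of 16181 tested fold changes. Transcripts inside its span were lower too. The opposite-strand RPSAP52 fell from 28.3 ± 2.58 to 0.980 ± 0.528 CPM (log2 fold change −4.81, edgeR adjusted p = 1.6e-25). HMGA2-AS1, which shares 2.55% of the HMGA2 exon bases, fell from 5.54 ± 0.888 to 0.184 ± 0.174 CPM (−4.82, adjusted p = 6.7e-15). The same-strand gene ENSG00000277945 had at most 3 counts in any T24R2 library and was at least 24.8-fold lower there. Taking the HMGA2-AS1 counts off those of HMGA2 moved the log2 ratio of HMGA2 from −3.44 to −3.41.

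HMGA1 (ENSG00000137309.20, chr6:34236873-34246231, plus strand) was the most abundant of the 9 per length, at 1649 ± 80.1 CPM per kb in T24 and 698 ± 36.1 in T24R2. Its level was 4063, 3911, 3680, 3916 and 3610 CPM in T24. It was 1757, 1566, 1541, 1617 and 1642 CPM in T24R2, below T24 in all libraries. The log2 fold change was −1.24 (SE 0.04), a T24R2 level 42.3% of that in T24. Per kb of exon HMGA2 made up 0.780% of the HMGA sum in T24 and 0.171% in T24R2. With the canonical transcript in place of all exons as the length, these shares were 2.32% and 0.516%, and without length correction 4.85% and 1.0995%, since the exons of HMGA2 span 15070 bases and its canonical transcript 4117. HMGA2 made up a smaller part of the HMGA pool in T24R2 than in T24. That direction follows from its larger fall and holds for any length, so the 3 measures are not separate support.

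**Figure D2:**
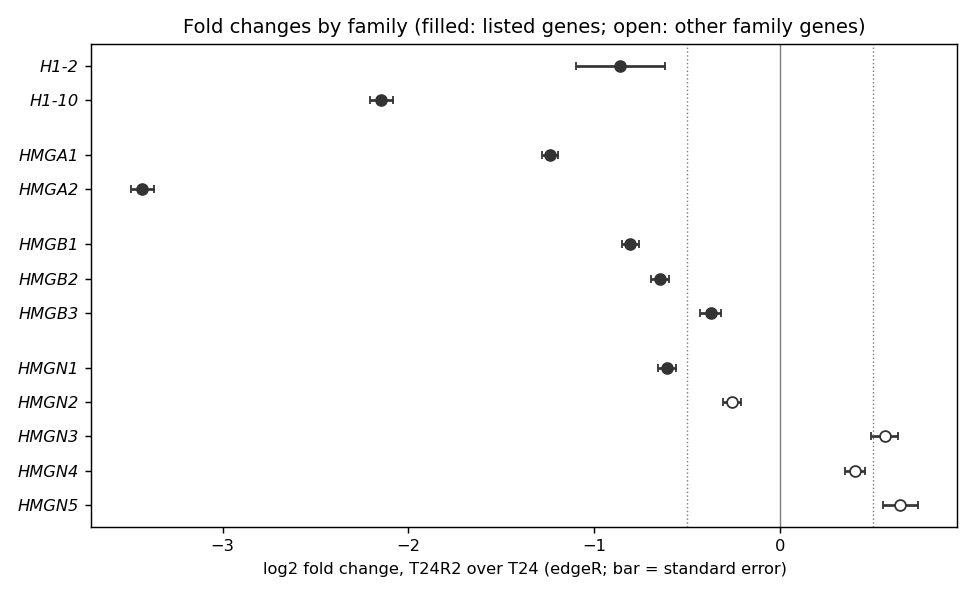
Log2 fold change of T24R2 over T24 with its SE, by family, with filled points for the listed genes and open points for other family genes, and dotted lines at −0.5 and 0.5. The listed genes run from −3.43 (HMGA2) to −0.37 (HMGB3), and HMGN3, HMGN4 and HMGN5 lie above 0.

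HMGB1, HMGB2 and HMGB3 each carry a pair of HMG boxes and an acidic tail. HMGB1 (ENSG00000189403.15, chr13:30456704-30617597, minus strand), which also acts as a danger signal when released from cells, had 569, 601, 578, 549 and 601 CPM in T24. It had 314, 351, 305, 356 and 331 CPM in T24R2, without overlap. The log2 fold change was −0.81 (SE 0.05), from 579 ± 22.3 to 331 ± 22.1 CPM. HMGB1 has 48 annotated pseudogenes in the tables, of which 20 had a count, and reads of near-identical copies can be split among them. Their summed counts equalled 14.9% to 17.6% of the HMGB1 counts in T24 and 14.9% to 17.0% in T24R2. HMGB1P5 stood at 57.5% and HMGB1P6 at 56.1% of their T24 levels in T24R2, close to 57.2% for HMGB1 itself. The pseudogenes therefore differed between the lines about as HMGB1 did, and their counts cannot be told apart from misassigned HMGB1 reads.

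HMGB2 (ENSG00000164104.12, chr4:173331376-173334432, minus strand), the family member most tied to dividing cells, had 397, 384, 388, 358 and 404 CPM in T24. In T24R2 it had 253, 262, 215, 262 and 242 CPM, all below T24. The means were 386 ± 17.8 and 247 ± 19.5 CPM, with a log2 fold change of −0.65 (SE 0.05). HMGB3 (ENSG00000029993.15, chrX:150980509-150990771, plus strand), studied mainly in blood progenitors, had 88.3, 91.9, 100.4, 88.1 and 98.9 CPM in T24. Its T24R2 values of 71.6, 66.6, 79.4, 76.4 and 66.9 CPM were also all lower, though by a narrow margin. The log2 fold change of −0.37 (SE 0.06) was too small for the minimum of 0.5, and that of HMGN1, −0.61, was the smallest of the 9 genes to pass it. Per kb of exon the HMGB sum was 260 ± 10.6 in T24 and 164 ± 9.91 in T24R2. HMGB2 made up 61.8% ± 0.79 and 62.5% ± 1.62 of it, HMGB1 29.0% ± 0.66 and 26.2% ± 0.82, and HMGB3 9.19% ± 0.43 and 11.3% ± 1.37. Without length correction HMGB1 made up 54.7% and 50.96% of the HMGB sum, so the order of HMGB1 and HMGB2 depends on the length used. HMGB4, a gene of the germ line, was at 0 counts.

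HMGN1 (ENSG00000205581.11, chr21:39342315-39349647, minus strand) encodes a nucleosome-binding protein that competes with linker histones. It had 269, 288, 268, 270 and 272 CPM in T24. It had 192, 189, 165, 186 and 165 CPM in T24R2, below every T24 library. The log2 fold change was −0.61 (SE 0.05). Its relatives were mixed by edgeR's quasi-likelihood test. HMGN3 rose from 34.0 ± 2.83 to 50.2 ± 3.39 CPM (log2 fold change 0.56, adjusted p = 4.2e-09) and HMGN5 from 16.8 ± 1.42 to 26.3 ± 2.83 CPM (0.65, adjusted p = 1e-07). HMGN2, the most abundant, and HMGN4 were not called, at −0.26 and 0.40, though HMGN4 was called without scaling (0.57). HMGN3 shares 19.0% of its exon bases with HMGN3-AS1 on the opposite strand. Per kb of exon, HMGN1 made up 20.8% ± 0.78 of the HMGN sum in T24 and 14.04% ± 0.90 in T24R2, while the sum itself was 262 in T24 and 253 in T24R2. With the canonical transcript length the HMGN1 shares were 42.2% and 32.5% of sums of 509.9 ± 20.2 and 434.5 ± 20.4, and without length correction 33.7% and 25.7% of 812 ± 34.5 and 699 ± 32.1 CPM. The share of HMGN1 was lower in T24R2 by each measure, which had to follow from its fold change, the lowest of the HMGN genes. The size of the gap between the HMGN sums depended on the length. The calls of HMGB2 and HMGN1 rest on the scaling: without scaling beyond total counts their log2 fold changes were −0.48 and −0.44, and the median of all genes stood at 0.18.

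The nearest tested genes describe the surroundings of each gene, at distances from 96 to 447743 bases, and the far ones say little of its own locus. For HMGB1 both nearest tested genes fell more than HMGB1 did. USPL1, 96 bases beyond the outermost annotated end of HMGB1 at chr13:30617597, fell by 1.32 on the log2 scale (edgeR adjusted p = 4.3e-15). The RefSeq promoter of HMGB1 lay elsewhere in its span, at chr13:30465887-30466186, so the short distance does not place USPL1 beside that start. KATNAL1, a microtubule-severing enzyme subunit 149153 bases away, fell by 1.64 (adjusted p = 1.3e-20). The 6 tested genes within 1 Mb of HMGB1, this pair included, had a median of −0.05. Beside HMGA1 the nearest tested genes moved apart, SMIM29 rising by 0.54 at a distance of 150 bases and LEMD2, 447743 bases away, at −0.55. The LEMD2 call was lost without scaling (−0.38) or with upper-quartile normalization (−0.47). On the sides of HMGA2, LLPH, 150264 bases away, was at 0.17 and MSRB3-AS1, 182088 bases away, at −1.06, a call lost without T24 replicate 1. The 12 tested genes within 1 Mb of HMGA2, overlapping ones included, had a median of −0.54. H1-10 lay between HMCES at −0.14 and IFT122P2 at −0.24, neither called. Next to H1-2, LINC02980 rose by 2.19 while HFE, the iron regulator, was at 0.06. H1-4 lay between the histone genes H2AC6 at −0.08 and H2BC5 at 0.32. The neighbours of HMGB2 (ENSG00000248774 at 0.36, ENSG00000288728 at −0.50), HMGB3 (CD99L2 at −0.07, VMA21, 405744 bases away, at 0.37) and HMGN1 (BRWD1 at 0.41, GET1 at 0.35) were not called.

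**Figure D3:**
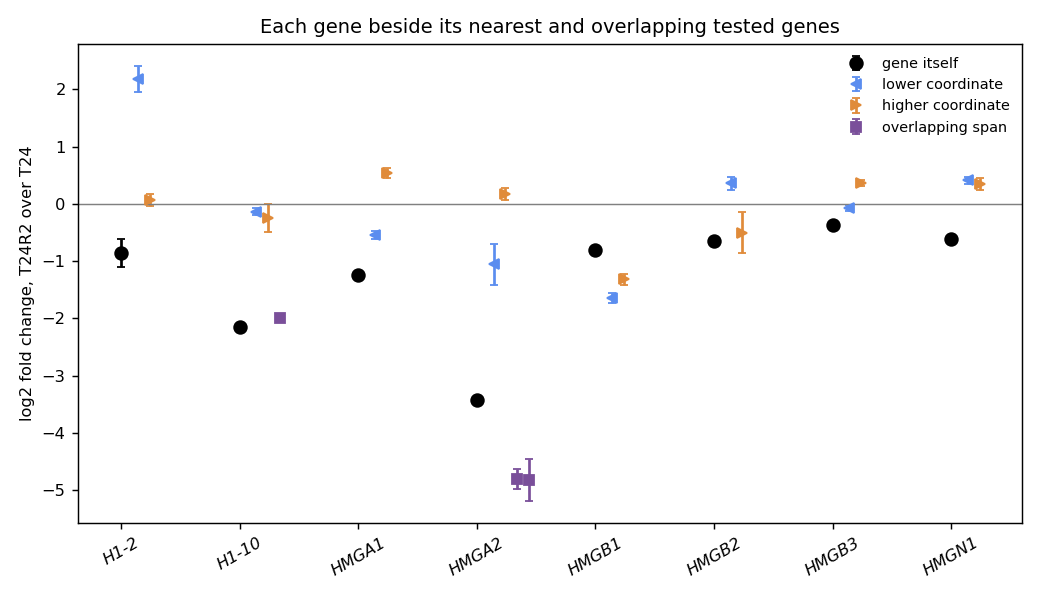
Log2 fold change (T24R2 over T24, bars are SE) of each of the 8 tested genes in black, beside its nearest tested gene at lower and at higher coordinates and genes overlapping its span, leaving out a gene at the floor. The overlapping genes of H1-10 and HMGA2 lie at −1.99 to −4.82, and both neighbours of HMGB1 lie below it.

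Across the 10 libraries HMGA2 had the profile most like those of COL4A2, a basement membrane collagen chain, LAPTM5, a lysosomal membrane protein, and IGFBP5, an insulin-like growth factor binding protein. Pearson's r of log2(CPM + 1) was 0.999 for each, as a description. Of 10581 genes compared 752 had an r above 0.99 with HMGA2, since any gene that separates the lines cleanly scores high. No listed gene was higher in T24R2, so no such search was made for a rise.

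Groups of genes that work with histones and HMG proteins were set beside the 9 genes, as counts and medians with the background of 24.9% called higher and 26.5% lower (32.2% and 21.2% without scaling). Of 13 tested genes of other HMG-box chromatin proteins 5 rose and 0 fell, with a median of 0.34, while the HMGB genes had lower values. They include SMARCE1, a subunit of the BAF remodelling complex, from 6.30 ± 0.848 to 17.9 ± 1.09 CPM (log2 fold change 1.51, edgeR adjusted p = 3.5e-14) and TOX2 (1.46, adjusted p = 6.4e-25). PBRM1, the polybromo subunit of the PBAF complex, rose by 0.91 (adjusted p = 1.2e-15), and UBTF, which serves RNA polymerase I, by 0.82 (adjusted p = 1.3e-17). Of 63 replication-dependent core histones 7 passed the filter, 2 rose (H4C16 by 2.42 and H3C6 by 1.103) and 0 fell. The summed level of the 63 was 20.8 ± 1.02 CPM in T24 and 22.8 ± 2.53 in T24R2. Both rises rest on few counts. H4C16 had 0 to 6 in T24 and 14 to 19 in T24R2 (SE 0.47), and H3C6 had 2 to 11 and 6 to 22 (SE 0.40). Since 62 of these 63 genes had the stem-loop motif, their values carry the same limit of capture as those of H1-2 and H1-4. H2AC20 and H2BC21 were not called, at 0.64 and −0.50. H3C6 was not called without T24 replicate 2. The absence of falls follows the filter on low counts: with no filter 4 of 50 rose and 4 fell, with a median of −0.25, and with DESeq2 3 of 38 rose and 2 fell. Of 9 replacement core histones 3 fell and 0 rose, with a median of −0.12 (0.05 without scaling): MACROH2A2 by 1.40, H3-3B, which encodes histone H3.3, by 1.18, and H2AX, the variant phosphorylated at DNA breaks, by 0.78. H2AZ1 was not called, at 0.22.

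The machinery that makes and handles histone mRNA and protein was mixed. Of 11 genes of histone mRNA transcription and 3′ processing 3 rose and 2 fell, with a median of 0.11. NPAT, the coactivator of histone genes, fell by 0.66 (adjusted p = 3.7e-09), a call lost without scaling (−0.50), and LSM11, part of the U7 particle that cuts histone mRNA, by 1.07 (adjusted p = 4e-12). ZNF473 rose by 0.54, a call lost without T24 replicate 3 or T24R2 replicate 3, and CPSF2 was not called, at 0.26. Of 11 histone chaperones 2 rose and 2 fell, with a median of −0.09. ASF1A rose by 0.91 (adjusted p = 1.9e-09) while its paralog ASF1B fell by 0.73 (adjusted p = 4.7e-10), NAP1L4 fell by 0.75, and NASP, a chaperone that also binds linker histones, was not called, at −0.34. Of 4 tested SET complex partners of HMGB2 1 rose, ANP32A by 0.56 (adjusted p = 1.6e-13), with a median of 0.33. SET, APEX1 and NME1 were not called, at 0.19, 0.47 and 0.12, though APEX1 was called without scaling (0.63).

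Among 9 tested receptors and partners of HMGB1 3 rose and 3 fell, with a median of 0.15. TLR4 fell from 58.2 ± 5.12 to 24.01 ± 2.77 CPM (log2 fold change −1.28, adjusted p = 6.9e-18). TLR2 had 60 to 107 counts in T24 and 0 in every T24R2 library, at least 37.0-fold lower. CD24, which dampens the response to HMGB1, rose from 0.349 ± 0.268 to 13.8 ± 1.66 CPM (5.27, adjusted p = 8e-21). The chemokine CXCL12, a binding partner of HMGB1, had 11 to 15 counts in T24R2 and 0 in T24, at least 3.61-fold higher. Of 13 tested genes of the let-7 axis, let-7 hosts, processing factors and known targets, 2 rose and 4 fell, with a median of −0.11. The host transcript MIRLET7BHG fell by 1.41 (adjusted p = 3.4e-14), IGF2BP2 by 1.43 (adjusted p = 8.6e-27) and CDC34 by 0.91, and IGF2BP1 rose by 1.22 (adjusted p = 1.1e-19). The counts mix these roles. Of the known targets named here IGF2BP2 and CDC34 fell and IGF2BP1 rose, and a part of let-7 in the HMGA2 values was not tested. Of 16 proliferation markers 5 fell and 2 rose, with a median of −0.43. CDK1 fell by 1.74 (adjusted p = 5.1e-29), MKI67 by 1.21 and RRM2 by 1.06, while MCM7, a subunit of the replicative helicase, rose by 1.00. By the rule 5 markers fell, as HMGB2 and the called linker histone genes did, while 2 rose and 9 were not called. With no fold change minimum 10 were lower and 4 higher. Their summed level ran from 3383 to 3758 CPM in T24 and from 2794 to 2958 in T24R2. The part of proliferation in the HMGB2 and linker histone values was not tested.

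**Figure D4:**
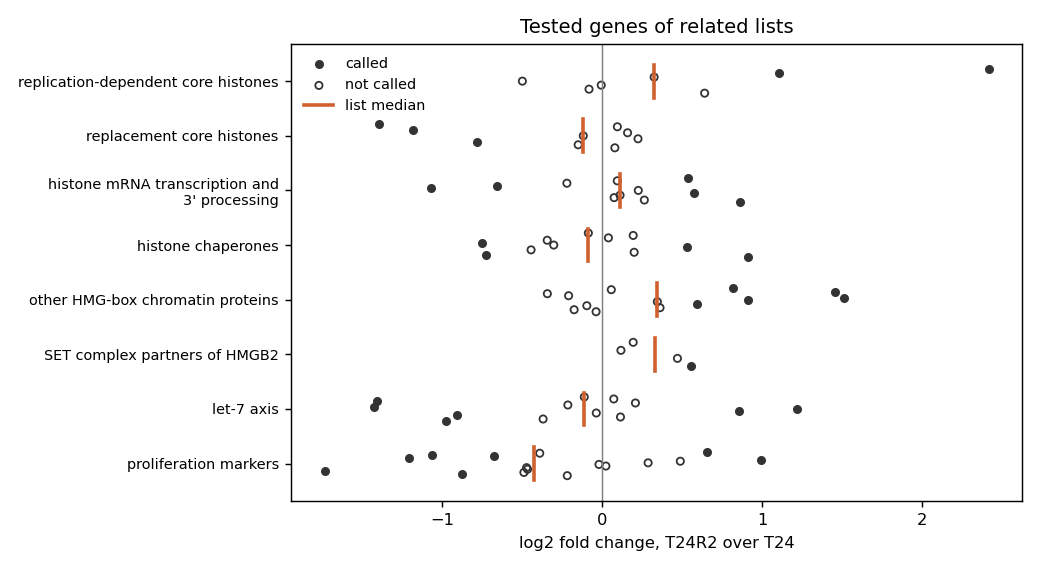
Log2 fold change (T24R2 over T24) of every tested gene in 8 related groups, filled where called and open where not, with an orange bar at each group's median. Medians run from −0.43 (proliferation markers) to 0.34 (other HMG-box chromatin proteins).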

How the data were processed

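Per the labels and the study's methods, the authors used STAR 2.7.0 for alignment (hg38), SAMtools 1.10 to retain unique, non-duplicate alignments, and featureCounts 2.0.1 with strand option 1 on GENCODE release 39 genes. The deposited values are raw counts per gene, not normalized, in 1 table per library. Reads shared by near-identical genes were dropped by the unique mapping, which lowers counts of genes with pseudogenes.

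T24R2 was compared with T24 (5 libraries each) in R 4.3.3 with edgeR 4.0.16: filterByExpr (16181 genes), TMM, glmQLFit and glmQLFTest, with Benjamini-Hochberg adjustment over all tested genes. The biological coefficient of variation was 6.61%. No list was tested as a set. Alternatives used DESeq2 1.42.0, limma 3.58.1 and other scaling, filters, fold minimums and lengths. Where no library of a line exceeded 3 counts, a bound was given. Bounds cover counting error only. Sequence motifs were searched in Python 3.11.15, and fits were tested on simulated data.

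The 9 genes, the lists and the tests were chosen with earlier results of these data known. Named genes are the 9 genes, their family, up to 4 genes per list with the smallest adjusted p, nearest and overlapping genes, the 3 most alike in profile, and pseudogenes with a mean of at least 50 counts. CDH1, UPK3A, UPK1B, EPCAM, KRT5, KRT7, KRT19, KRT20 and CDH5 were named after their values were seen. Not every gene of the family is reported here. The comparison of protein sequences was not made here.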

Additional observations from a re-analysis of the deposited data

Results flagged for a closer look

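In groups of 5 libraries, 3 of 50 values examined had 1 library set apart from the others of its line by Dixon's criterion, where chance gives about 2.5. HMGN1 stood at 288.5 CPM in T24 replicate 2, against 268 to 272 CPM in the other T24 libraries. The summed level of the histone mRNA transcription and 3′ processing genes was 474.1 CPM in T24R2 replicate 3, against 442 to 450 CPM in the others. The summed level of the HMGB1 receptors and partners was 407.8 CPM in T24R2 replicate 1, against 428 to 433 CPM in the others. Leaving out T24 replicate 2 kept HMGN1 lower in T24R2, and its log2 fold change without any 1 library ran from −0.63 to −0.58.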

How the results depend on the processing

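The log2 fold changes of the 8 tested genes kept their direction in every alternative fit. No called gene named here changed direction, but the split of all calls did: 4027 higher and 4282 lower became 5206 and 3431 without scaling beyond total counts, and 4531 and 3883 with upper-quartile normalization. Genes not called near 0 changed sign: H2AC6 was at 0.08 and HMCES at 0.03 without scaling, CD99L2 at 0.09 and, with upper-quartile normalization, at 0.0039, and H2AC6 at 0.07 and 0.02 without T24R2 replicate 1 or 4. List medians changed sign without scaling for replacement histones (0.05), chaperones (0.08) and the let-7 axis (0.05), and for HMGB1 receptors (−0.17 with DESeq2 or no filter, −0.18 with at least 100 counts) and core histones (−0.09 and −0.10 with DESeq2, with and without shrinkage, −0.25 with no filter). Of the alternative values for single genes, 1484 stayed on the same side of the rule, 9 lost the call and 11 gained it; without scaling beyond total counts HMGB2, HMGN1, NPAT and LEMD2 lost it. Over all genes, 8309 were called, 4991 with a mean of at least 100 counts and 4211 with a fold change minimum of 1 (log2). With that minimum, calls numbered 3 for the 9 genes, 0 for the other HMGA, HMGB and HMGN genes, 2 for HMG-box genes, 1 for histone mRNA processing, 0 for chaperones, 0 for SET partners, 3 for the let-7 axis and 3 for proliferation. With no minimum, they numbered 4 for the other HMGA, HMGB and HMGN genes, 10 for HMG-box genes, 7 for replacement histones, 8 for processing, 9 for chaperones, 3 for SET partners and 14 for proliferation. Core histones gave 5 calls with DESeq2 (with or without shrinkage) and 8 with no filter. With at least 100 counts, processing gave 3, SET partners 2 and HMGB1 receptors 2. SET partners gave 2 without scaling and 2 with upper-quartile scaling. Without any 1 library, calls ran from 8398 to 8466 over all genes, stayed at 7 for the 9 genes, and ran from 1 to 3 for core histones, 5 to 7 for HMGB1 receptors, 3 to 4 for chaperones, 4 to 5 for processing and 7 to 10 for proliferation; the lowest core histone count came without T24 replicate 2.

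Shares of a family depend on the length used. Without length correction, the shares in T24 and T24R2 were 4.85% and 1.0995% for HMGA2, 54.7% and 50.96% for HMGB1, 36.4% and 37.9% for HMGB2, and 33.7% and 25.7% for HMGN1. With the canonical transcript length, an alternative chosen after seeing the data, they were 2.32% and 0.516% for HMGA2, 26.5% and 24.1% for HMGB1, 66.8% and 67.7% for HMGB2, 6.66% and 8.19% for HMGB3, and 42.2% and 32.5% for HMGN1.

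With the replicate number as a block, 8240 genes were called, 8226 of them shared with the 8309, and the 9 genes again gave 7 calls. Same-number deviations correlated at 0.00626 to 0.0635, each above its mean with the other numbers, which ran from −0.0234 to 0.00105. Of the 5 numbers 1 correlated best with its own. Correlations this weak cannot settle whether the numbers pair the libraries. Counts of 68 or fewer limit H1-2, and those of 9 or fewer limit H1-4.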
